A study of Mus musculus with 13 samples.

Results

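The 8 genes described here encode the core of the Notch pathway, and they were taken by gene symbol from the 24972 genes in both deposited tables of TPM, transcript abundances scaled to sum to 1000000 in each library. They are the receptors Notch1 and Notch2, the processing enzymes Adam10 and Ncstn, the nuclear cofactors Rbpj and Maml1, and the targets Hes1 and Myc. All 8 were present, and each was measured in 13 libraries of common lymphoid progenitors (CLPs), the BM cells that can give rise to T, B, and NK cells. Each library is RNA from 1 adult mouse of 6 to 12 weeks, labelled C57BL/6 and backcrossed to C57BL/6J per the methods, sorted as DAPI-, lineage-negative, Sca1 low, cKit low, CD127+, CD135+ cells. The mice were WT (both Notch1 alleles intact, libraries 1, 2, 3, 10, and 11), Notch1+/- (1 functional allele, libraries 4, 5, 6, 12, and 13), or Notch1+/ΔTAD (libraries 7, 9, and 14). In Notch1+/ΔTAD mice the other allele is WT and the mutant allele makes a receptor without its transactivation domain, which recruits coactivators. The design sets loss of 1 allele beside an altered receptor, so each mutant was compared with WT and the mutants with each other.

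Notch receptors are single-pass membrane proteins that are activated by a ligand on a neighboring cell. Ligand pulling exposes a site that the metalloprotease ADAM10 cuts, and the γ-secretase complex, of which nicastrin (Ncstn) is a subunit, then frees the intracellular domain. That domain enters the nucleus, binds the DNA-binding protein RBPJ, and recruits Mastermind-like proteins (MAML1 to MAML3) and histone acetyltransferases to switch on targets such as Hes1, a transcriptional repressor, and Myc, a driver of growth. In lymphoid development, Notch1 is required for the T cell fate, and thymic targets of the pathway include Tcf7, Gata3, Bcl11b, and Ptcra.

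RBPJ binds DNA at a short motif, TGGGAA, most strongly as GTGGGAA, so the promoters of the genes were searched on both strands for these letters, where every GTGGGAA also counts as a TGGGAA. The sequences are from RefSeq on GRCm38.p6 and run from 250 bases before to 50 bases after an annotated start. For Notch1 and Rbpj this start lies inside the gene span given below, which begins farther upstream. The table held 7 windows for 6 of the 8 genes, as Rbpj has 2 annotated starts, and none for Hes1 or Myc. Of these and of the pathway genes, 3 are printed 5′ to 3′ on the gene's strand, with TGGGAA or its reverse complement TTCCCA in capitals. Notch1 is shown as the mutated gene (chr2:26503773-26504072, minus strand), Rbpj as the gene of the DNA-binding cofactor (chr5:53590096-53590395, plus strand), and Hes5 as a target that is a close relative of Hes1 (chr4:154960673-154960972, plus strand).
Notch1: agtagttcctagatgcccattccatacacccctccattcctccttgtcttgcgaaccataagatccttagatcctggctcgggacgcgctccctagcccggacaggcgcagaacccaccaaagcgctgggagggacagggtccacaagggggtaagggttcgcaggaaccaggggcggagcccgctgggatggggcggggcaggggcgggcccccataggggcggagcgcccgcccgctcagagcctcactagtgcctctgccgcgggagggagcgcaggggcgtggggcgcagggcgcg
Rbpj: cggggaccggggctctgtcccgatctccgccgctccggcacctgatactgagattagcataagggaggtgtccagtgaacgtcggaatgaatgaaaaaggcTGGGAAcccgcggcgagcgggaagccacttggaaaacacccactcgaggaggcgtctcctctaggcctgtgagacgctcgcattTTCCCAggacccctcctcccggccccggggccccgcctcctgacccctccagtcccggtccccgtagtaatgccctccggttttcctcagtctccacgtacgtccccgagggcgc
Hes5: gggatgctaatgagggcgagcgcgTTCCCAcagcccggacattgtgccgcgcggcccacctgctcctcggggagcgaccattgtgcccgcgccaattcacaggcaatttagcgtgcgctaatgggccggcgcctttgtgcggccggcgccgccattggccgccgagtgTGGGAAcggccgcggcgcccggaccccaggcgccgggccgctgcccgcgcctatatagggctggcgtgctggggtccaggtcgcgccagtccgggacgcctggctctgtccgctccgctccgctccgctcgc
The Notch1 window held no match, nor did those of Notch2, Adam10, Ncstn, and Maml1. The Rbpj window held TGGGAA at -149 on the plus strand and at -65 on the minus strand, counted from the annotated start of that window. The second Rbpj window overlaps the first and shares the minus-strand match. The Hes5 window held GTGGGAA at -226 on the minus strand and at -83 on the plus strand. TGGGAA was present in 2 of 7 windows of the 8 genes and in 25.6% of all 32851 promoter windows, and GTGGGAA was present in 0 of 7 and in 6.38%. Over the 78 windows of the pathway genes, among them Hes5, TGGGAA was present in 24.4% and GTGGGAA in 7.69%. A match in these letters describes the sequence and is not evidence of binding.

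Each library listed between 3264 and 6326 genes above 0, and 772 genes were above 0 in all 13. A TPM of 0 cannot be read as absence, because genes that every cell uses were also listed at 0, with Gapdh at 0 in 2 libraries, Hprt in 3, and Tbp in 9. Values are therefore given per library. Against the sort, the lymphoid genes Dntt, Flt3, and Ly6d were above 0 in 13 of 13 libraries, and Il7r, which encodes CD127, in 12. Other lymphoid genes were listed less often, with Rag1 above 0 in 11 libraries, Il2rg in 8, and Rag2 in 6. Kit and Ly6a, which encode cKit and Sca1 and were gated as low, were above 0 in 8 and 5. Of 6 erythroid markers, 5 were at 0 in every library, as were Cd3e, Cd3g, Cd8a, and Bcl11b of the T lineage. Cd4 was above 0 in 2 libraries, at up to 187 TPM, and Cd3d in 1, at 0.736 TPM, all of them WT. The summed level of 9 T and NK markers was 0 to 1309 TPM in WT, 0 to 36.7 in Notch1+/-, and 0 to 262 in Notch1+/ΔTAD libraries, with Nkg7 the highest at 1122 TPM. Myeloid markers were present, with a summed level over 9 genes of 436 to 2067 TPM in WT, 212 to 1257 in Notch1+/-, and 272 to 1773 in Notch1+/ΔTAD libraries. The summed level of 8 B lineage markers was 4.95 to 897 TPM, 14.5 to 1839 TPM, and 79.5 to 1555 TPM, respectively. In bulk RNA, fewer cells of a type and less RNA per cell cannot be told apart. Whether the other cell types contribute to the values of the Notch genes was not tested.

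The 8 genes differed widely in how often they were listed. Notch1 was above 0 in 12 of 13 libraries, Hes1 in 11, Rbpj in 10, Notch2 in 8, Myc in 7, Adam10 in 4, Ncstn in 3, and Maml1 in 1. The median over all libraries was 25.7 TPM for Notch1, 17.3 for Hes1, 16.7 for Rbpj, 0.649 for Notch2, 0.0196 for Myc, and 0 for Adam10, Ncstn, and Maml1. The means were 29.8 TPM for Hes1, 24.5 for Notch1, and 15.5 for Rbpj, and without library 7 those of Hes1 and Notch1 were 23.3 and 23.9 TPM. The means of Adam10 (8.51 TPM), Notch2 (8.39 TPM), and Ncstn (6.37 TPM) rest on few libraries, and that of Ncstn was 0.567 TPM without WT library 2. Myc had a mean of 1.33 TPM and Maml1 of 0.0275 TPM. TPM is scaled per transcript length, but the libraries hold reads from the 3′ end of transcripts and the lengths used are not given in the sources used here, so the order between genes is approximate. Among the 10149 genes above 0 in any library, the means of Hes1 and Notch1 lay at the 70.3 and 66.5 percentiles and that of Maml1 at the 3.60 percentile.

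**Figure D1:**
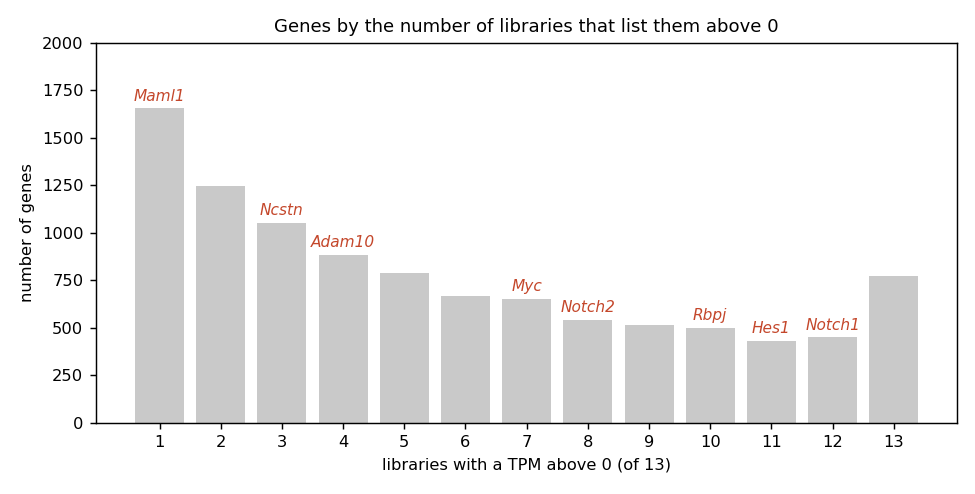
Number of genes (vertical axis) by the number of libraries, of 13, with a TPM above 0 (horizontal axis), over the 10149 genes above 0 in at least 1 library; each of the 8 genes is named over its bar. Notch1, Hes1, and Rbpj sit at 12, 11, and 10 libraries, and Maml1 sits in the tallest bar, the 1654 genes listed in a single library.

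Notch1 was the receptor most often listed. On GRCm38, the build used for all positions here, its gene spans chromosome 2 from 26457903 to 26516663 (minus strand), with 34 exons in its longest coding transcript, and the microRNA gene Mir6996 overlaps it on the same strand. The WT libraries 1, 2, 3, 10, and 11 had 18.5, 25.7, 13.8, 0, and 8.83 TPM. The Notch1+/- libraries 4, 5, 6, 12, and 13 had 34.8, 35.1, 78.5, 25.8, and 9.27 TPM. Libraries 7, 9, and 14 of Notch1+/ΔTAD mice had 32.4, 35.0, and 0.893 TPM. Thus 4 of 5 Notch1+/- libraries and 2 of 3 Notch1+/ΔTAD libraries were above every WT library, while library 13 and library 14 lay within or near the bottom of the WT range. Notch1 was not lower by mean in mice with 1 functional allele: the mean log2(TPM + 1) was 4.95 in Notch1+/- and 3.24 in WT, a difference of 1.71 (SE 1.43, 95% interval -1.35 to 4.77, limma adjusted p = 0.993, n = 5 and 5). The exact permutation p was 0.0873 before and 0.967 after adjustment over all genes tested. Where the 2 mutant alleles are altered relative to the 3′ reads is not given in the sources used here, so Notch1 does not check the genotype labels.

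The 5 libraries numbered 10 to 14 had less Notch1 than the 8 numbered 1 to 9 within each genotype. Its level was 13.8 to 78.5 TPM in the first range and 0 to 25.8 TPM in the second. WT libraries 10 and 11 were below WT libraries 1, 2, and 3, Notch1+/- libraries 12 and 13 were below 4, 5, and 6, and Notch1+/ΔTAD library 14 was below 7 and 9. This order, noticed after the values were seen, held for 9 of 6281 genes (0.143%), and the opposite order for 22 (0.350%). The share that a random order would give was not computed, so the order is a description and not a result about Notch1. Per the labels all libraries were prepared together, and what separates the number ranges is not stated. Notch1+/- exceeded WT in both ranges, by 1.25 on the log2 scale in libraries 1 to 9 (3 against 3) and by 2.40 in 10 to 14 (2 against 2). Notch1+/ΔTAD was 0.81 above WT in the first range, and its only library in the second differed from WT by -0.73.

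Notch2, the second receptor on CLPs, reached 1 TPM in 3 WT libraries and in a single library of each mutant. It lies on chromosome 3 from 98013527 to 98150361 on the plus strand and overlaps Gm42819 and Gm42820 on that strand, so its reads are less certain. WT libraries 1, 2, 3, 10, and 11 had 25.2, 0, 0, 11.9, and 1.99 TPM. The Notch1+/- libraries had 33.6 TPM in library 4, 0 in 5, 0.831 in 6, 0.649 in 12, and 0.434 in 13. In Notch1+/ΔTAD mice it was 34.6 TPM in library 7 and listed at 0 in 9 and 14. The highest value of each genotype, 25.2 to 34.6 TPM, came from libraries 1, 4, and 7, and the groups overlap. Notch2 met the minimum for a test against WT in Notch1+/ΔTAD alone, with a difference of -0.28 (SE 1.75, limma adjusted p = 0.996) that turned to 0.08 with a pseudocount of 10. Its difference between the mutants, 0.27 (SE 1.75, limma adjusted p = 0.997), turned to -0.29 after quantile normalization. The other 2 receptor genes, Notch3 and Notch4, were at 0 in all 13 libraries.

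The processing enzymes were listed in few libraries, with highest values of 48.9 TPM for Adam10 and 76.0 TPM for Ncstn. Adam10, the sheddase that makes the first activating cut, lies on chromosome 9 from 70678997 to 70780229 on the plus strand. Adam10 stood at 21.7 TPM in library 10 (WT), at 32.1 and 7.99 TPM in libraries 5 and 12 (Notch1+/-), and at 48.9 TPM in library 9 (Notch1+/ΔTAD), and was at 0 in the other 9 libraries. Every genotype thus had at least 1 library above 0 and most at 0, and no order of the genotypes emerged. Between the mutants the difference was 0.24 (SE 1.68, limma adjusted p = 0.997). Ncstn, a γ-secretase subunit that docks the substrate, lies on chromosome 1 from 172066013 to 172082795 on the minus strand and is overlapped by Copa on the other strand. Its values above 0 were 76.0 TPM in WT library 2, 6.08 TPM in Notch1+/- library 13, and 0.727 TPM in Notch1+/- library 12. All 3 Notch1+/ΔTAD libraries were at 0, as were 4 of 5 WT libraries, so the groups overlap and the gene was too seldom listed to be tested in any comparison.

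Rbpj, the DNA-binding partner of all Notch receptors, was present in most libraries and spanned the same range in each genotype. It lies on chromosome 5 from 53466152 to 53657362 on the plus strand. WT libraries 1, 2, 3, 10, and 11 had 0.0758, 0, 37.1, 16.7, and 0 TPM. Notch1+/- libraries 4, 5, 6, 12, and 13 had 0.463, 36.1, 38.4, 17.6, and 2.25 TPM, and Notch1+/ΔTAD libraries 7, 9, and 14 had 0, 21.0, and 32.3 TPM. The highest values, 32.3 to 38.4 TPM, were alike in the 3 genotypes, whereas 3 of 5 WT libraries were under 1 TPM and 1 library of each mutant was. The difference from WT was 1.50 in Notch1+/- (SE 1.56, limma adjusted p = 0.993) and 1.27 in Notch1+/ΔTAD (SE 1.98, limma adjusted p = 0.996), both smaller than their standard errors. The second value was 0.33 without library 14 and 2.86 without library 7. Maml1, the coactivator that bridges the receptor and RBPJ to acetyltransferases, was at 0 in every library but Notch1+/- library 4, with 0.358 TPM. It lies on chromosome 11 from 50255634 to 50292311 on the minus strand. Among its relatives, Maml2 was above 0 in 1 library and Maml3 in 10, with a median of 6.50 TPM and a maximum of 103 TPM.

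Hes1, a direct target that represses other genes, had the highest mean and median TPM of the 8 genes in Notch1+/ΔTAD CLPs, though it was the highest of them in library 7 alone, below Adam10 in library 9 and Rbpj in library 14. Its 4 exons span chromosome 16 from 30064384 to 30067796 (plus strand), where no annotated gene overlaps it. In WT, libraries 1, 2, 3, 10, and 11 had 17.3, 2.73, 27.9, 32.2, and 0 TPM. Notch1+/- libraries 4, 5, 6, 12, and 13 had 50.9, 79.4, 0.782, 0, and 6.92 TPM, and Notch1+/ΔTAD libraries 7, 9, and 14 had 109, 44.2, and 16.9 TPM. Libraries 7 and 9 were above every WT library and library 14 fell among them, while 2 of the Notch1+/- libraries were above the WT range and 3 within it. Notch1+/ΔTAD exceeded WT by 2.28 on the log2(TPM + 1) scale (SE 1.80, 95% interval -1.59 to 6.15, limma adjusted p = 0.972) and Notch1+/- by 2.31 (SE 1.91, interval -1.65 to 6.28, limma adjusted p = 0.997). These differences did not pass the threshold, and the exact permutation p-values were 0.179 and 0.250. Notch1+/- and WT differed by -0.03 (SE 1.70, 95% interval -3.66 to 3.60), which turned to 0.08 after quantile normalization. Within the library numbers, Notch1+/ΔTAD was above WT by 2.49 in 1 to 9 and by 1.64 in 10 to 14.

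Myc, which drives growth and metabolism of dividing progenitors, was at or below 6.39 TPM throughout. Its 3 exons span chromosome 15 from 61985391 to 61990374 (plus strand). WT libraries 1, 2, 3, 10, and 11 had 3.29, 0.0196, 0, 0, and 0.0946 TPM. Notch1+/- library 4 had 6.39 TPM and library 13 had 0.0258 TPM, with 0 in 5, 6, and 12, and Notch1+/ΔTAD libraries 7, 9, and 14 had 1.27, 0, and 6.16 TPM. A single library of 5 reached 1 TPM in WT and in Notch1+/-, and 2 of 3 did in Notch1+/ΔTAD. The difference of Notch1+/ΔTAD from WT was 0.89 (SE 0.90, limma adjusted p = 0.985, exact permutation p = 0.375), was 0.14 without library 14, and turned to -0.19 after quantile normalization.

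**Figure D2:**
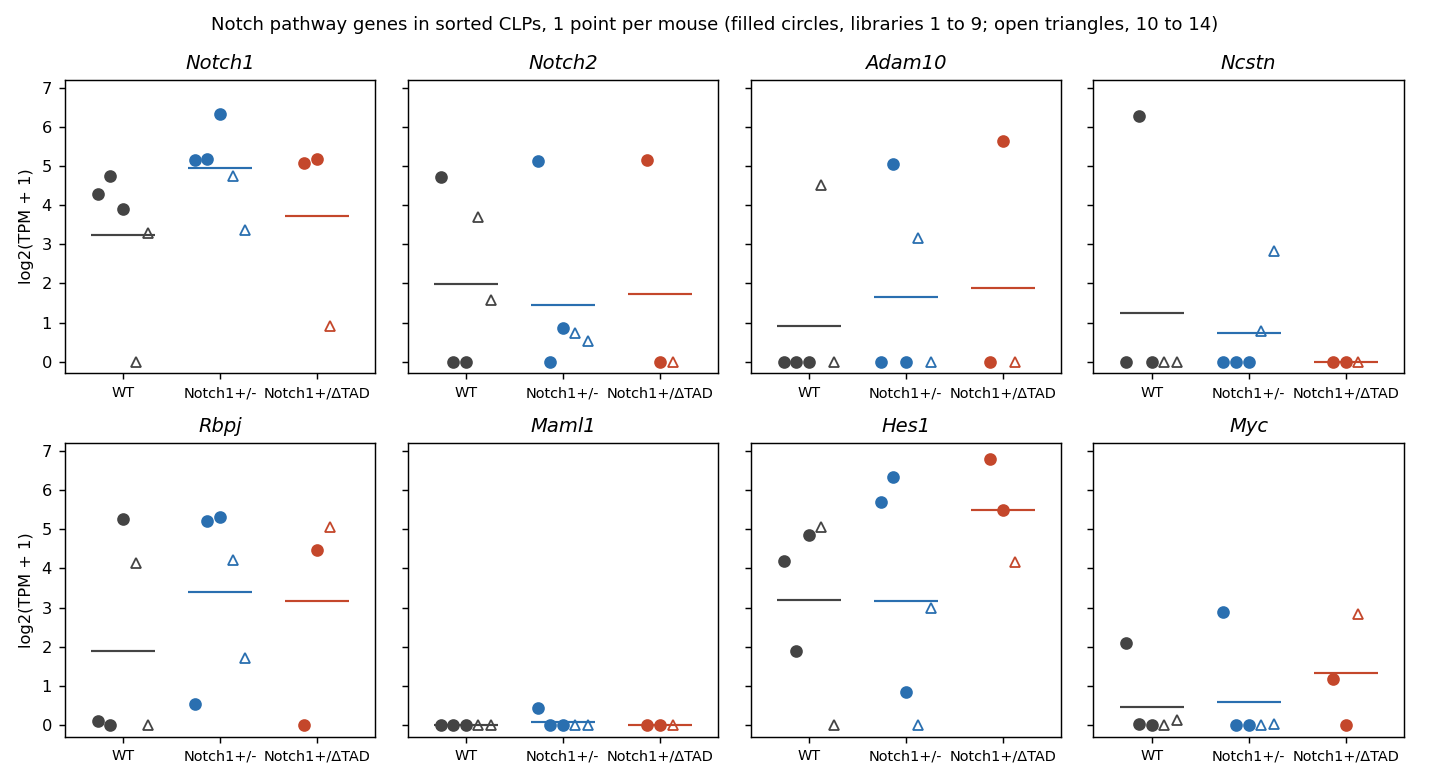
Level of each gene as log2(TPM + 1) (vertical axis) in every library, by genotype, with 1 point per mouse; filled circles are libraries 1 to 9, open triangles are libraries 10 to 14, and horizontal lines are genotype means. The 3 genotypes overlap in every gene above 0 in more than 1 of them, and the Notch1 triangles lie below the Notch1 circles within each genotype.

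None of the 8 genes passed an adjusted p of 0.05 in any comparison. In Notch1+/ΔTAD against WT, 5 of the 8 met the minimum of 1 TPM in 3 libraries, and 0 of these 5 were called by limma, as were 0 (0%) of the 4737 genes tested. At an unadjusted p under 0.05, 0 of the 5 were called, where 237 genes (5.00%) were, and 0 of the 5 had groups that did not overlap, where 148 (3.12%) did. In Notch1+/- against WT, 3 of the 8 met the minimum of 1 TPM in 5 libraries. Of these, 0 were called at either threshold and 0 did not overlap, beside 0 (0%), 170 (5.35%), and 25 (0.787%) of 3178 genes. Between the mutants, 6 of the 8 were tested with 0 called and 0 without overlap, beside 0 (0%), 335 (5.33%), and 192 (3.06%) of 6281 genes. Exact permutation tests adjusted over all genes called 0 genes in each comparison, but they could hardly have called any. The smallest unadjusted p possible was 0.0179 for 3 against 5 libraries and 0.00794 for 5 against 5. After adjustment, a call would have needed a large share of all genes to reach that p. The comparisons against WT share the WT libraries. The 95% intervals of the differences were wide, from -1.05 to 2.83 for Myc and from -2.97 to 5.52 for Rbpj in Notch1+/ΔTAD against WT, so these tests do not show that the levels are equal.

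By mean, 61.8% of the genes tested were higher in Notch1+/ΔTAD than in WT and 59.0% higher than in Notch1+/-. The Notch1+/ΔTAD libraries listed 4706 to 5764 genes above 0, WT libraries 3744 to 4614, and Notch1+/- libraries 3264 to 6326. The median difference from WT was 0.47 on the log2(TPM + 1) scale over 4737 genes, and -0.02 after quantile normalization. The median against Notch1+/- was 0.35 and 0.01, respectively. Relative to these medians, Hes1 was 1.81 higher in Notch1+/ΔTAD than in WT and 1.96 higher than in Notch1+/-, and it kept its direction after quantile normalization, at 1.48 and 1.44. Notch1 was 0.01 above the median difference from WT and turned to -0.25 after quantile normalization. Rbpj was 0.80 above it and kept its direction after quantile normalization. The part of the number of genes listed in these values was not tested. In Notch1+/- against WT the median was 0.06, so Notch1 and Rbpj stood 1.65 and 1.44 above it.

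**Figure D3:**
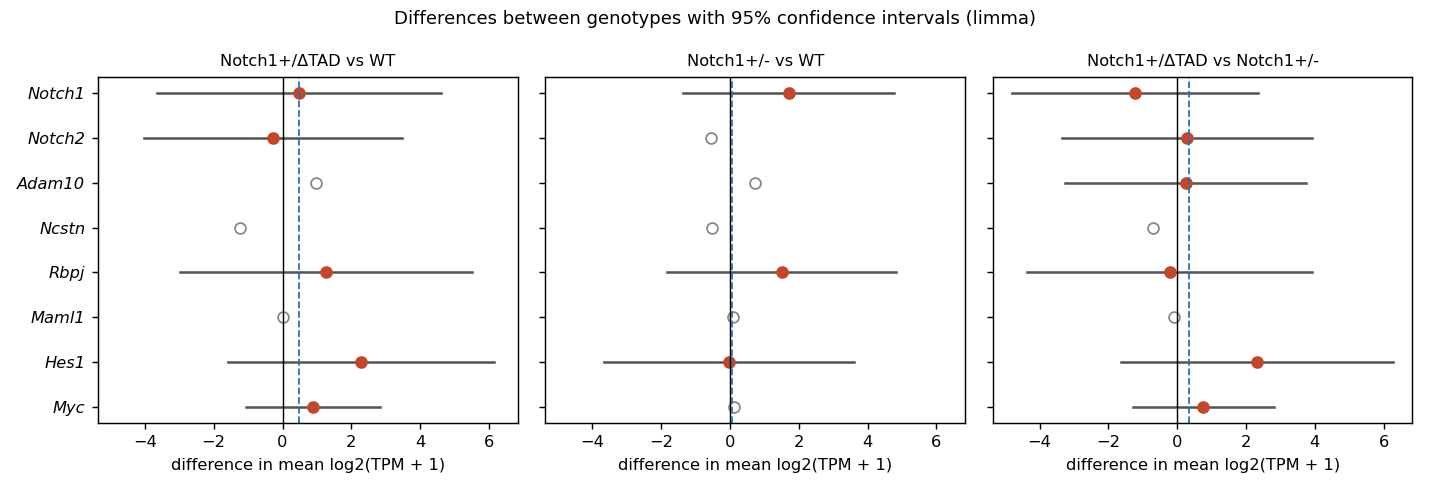
Difference in mean log2(TPM + 1) between genotypes (horizontal axis) for each gene, with 95% confidence intervals from limma for genes that met the minimum (filled points) and none for the others (open points); dashed lines mark the median of all genes tested. Every interval crosses 0, and the Hes1 points lie at 2.28 and 2.31 in the Notch1+/ΔTAD comparisons and at -0.03 between Notch1+/- and WT.

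The wider pathway was described over 77 genes in the tables, of which 69 are not among the 8. In Notch1+/ΔTAD against WT 38 were tested, with 24 higher and 14 lower by their means, a median of 0.44 beside 0.47 over all genes, and 0 called by limma after adjustment. The share of all 4737 genes that were higher is the 61.8% given above, and after quantile normalization the pathway genes split into 15 higher and 23 lower. At an unadjusted p under 0.05, 1 of the 38 was called, where 5.00% of all genes were. That gene was Il21r, which encodes a cytokine receptor chain. It was also the only 1 of the 38 without overlap between groups, where 3.12% of all genes had none. The authors picked Il21r as a Notch target from these same libraries, so its place on the list is not independent of these values. The paper also gives other evidence. It reports Il21r as a Notch target by qRT-PCR of sorted WT and Notch1+/ΔTAD CLPs. In the paper, a γ-secretase inhibitor lowered Il21r in early cultures, and an RBPJ site of the human gene drove a Notch-dependent reporter. In the libraries used here, Il21r met the minimum through WT alone. Il21r had 15.1 to 295 TPM in WT and 0 to 0.447 TPM in Notch1+/ΔTAD libraries (difference -6.12, SE 1.73, limma adjusted p = 0.433). In Notch1+/- libraries Il21r ran from 0 to 280.0 TPM, across both (difference from WT -2.06, SE 1.79, limma adjusted p = 0.993, and between the mutants -4.07, SE 2.03, limma adjusted p = 0.941). In Notch1+/- against WT 32 were tested, 16 in each direction, where 51.4% of all genes were higher, with a median of 0.01 beside 0.06 and 0 called after adjustment. At an unadjusted p under 0.05, 1 of the 32 was called, where 5.35% of all genes were. That gene was Ctbp1, a transcriptional corepressor, listed at 1.66 to 185 TPM in WT. It was at 0 in 3 of 5 Notch1+/- libraries and at 59.3 and 0.584 TPM in libraries 4 and 13, so the groups overlap (difference -4.32, SE 1.72, limma adjusted p = 0.853). Between the mutants 43 were tested, 25 higher and 18 lower in Notch1+/ΔTAD, where 59.0% of all genes were higher, with a median of 0.24 beside 0.35 and 0 called at either threshold. After quantile normalization 18 were higher and 25 lower.

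Most ligand and thymic target genes of the pathway were listed at 0 in all or nearly all libraries. The ligand genes Dll1, Dll3, Dll4, and Jag1 were at 0 in all 13 libraries and Jag2 was above 0 in 1, at 0.237 TPM. The thymic targets Tcf7, Bcl11b, Il2ra, and Dtx1 were at 0 throughout, as were Hey1, Hey2, and Heyl, the Hes-related repressors. Nrarp, a feedback inhibitor of the receptor, reached 0.0827 TPM, Ptcra, which encodes a chain of the pre-T cell receptor, 0.311 TPM, and Gata3 37.9 TPM in a single WT library. Hes5 was above 0 in 6 libraries, with 58.0 TPM in WT library 3, 17.5 TPM in Notch1+/- library 12, and 35.2 TPM in Notch1+/ΔTAD library 9. Deptor, another listed target, was above 0 in WT libraries 10 and 11 alone, at 45.5 and 16.1 TPM, and was not tested here. The paper reports Deptor as a Notch target by qRT-PCR of sorted CLPs. The targets that were often listed were Igf1r in 13 libraries, Cdkn1a, a cell cycle inhibitor, and Il7r in 12, and Ccnd1, a G1 cyclin, in 10.

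The γ-secretase subunits were unevenly listed. Psenen and Aph1a, small subunits of the complex, were above 0 in 12 and 13 libraries with medians of 254 and 99.5 TPM. Psen2, a catalytic subunit, was above 0 in 5 libraries, and Ncstn in 3. Ncstn and Adam10 were above 0 together in Notch1+/- library 12 alone, at 0.727 and 7.99 TPM, where Psen2 had 3.99 TPM.

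Corepressors sit with RBPJ when no receptor domain is bound, and 11 of the 12 listed were tested between the mutants. Hdac1, a histone deacetylase with a median of 123 TPM, had 265, 308, and 262 TPM in libraries 7, 9, and 14 of Notch1+/ΔTAD mice. The gene stood at 51.6, 90.3, 0, 119.7, and 123 TPM in Notch1+/- libraries 4, 5, 6, 12, and 13, so the mutants did not overlap. In WT it was 192, 287, and 187 TPM in libraries 1, 2, and 3 and 0 in 10 and 11. The difference was 2.90 between the mutants (SE 2.04, limma adjusted p = 0.997, exact permutation p = 0.107) and 3.46 from WT (SE 2.02, limma adjusted p = 0.952). Ncor1, the scaffold that holds histone deacetylases, was the other pathway gene without overlap between the mutants. It was at 98.6 to 187 TPM in Notch1+/ΔTAD and 21.2 to 87.7 TPM in Notch1+/- libraries (difference 1.29, SE 1.22, limma adjusted p = 0.997, exact permutation p = 0.0357). In WT libraries Ncor1 ran from 14.6 to 157 TPM, across both mutants. These 2 are 2 of 43 pathway genes without overlap between the mutants, where 3.06% of all genes had none. That count is near the share of all genes, so it is not a result about corepressors.

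Among coactivators and genes of receptor turnover, the differences with the largest size did not pass the threshold. Snw1, which encodes the RBPJ-binding protein SKIP, was above 0 in 13 libraries with a median of 145 TPM. Ep300, a histone acetyltransferase, was 2.68 to 10.1 TPM in Notch1+/-, 0 to 4.85 TPM in WT, and 0.0517 to 4.42 TPM in Notch1+/ΔTAD libraries (Notch1+/- against WT 1.89, SE 0.98, limma adjusted p = 0.921). Kat2a, another acetyltransferase, was at 0 in all 3 Notch1+/ΔTAD libraries, in 4 of 5 Notch1+/- libraries, and in 1 of 5 WT libraries (Notch1+/ΔTAD against WT -2.81, SE 1.60, limma adjusted p = 0.952). Kat2a met the minimum for that test through the WT libraries alone. Maml3 differed from WT by -2.04 in Notch1+/ΔTAD mice (SE 2.08, limma adjusted p = 0.985). Fbxw7, the ubiquitin ligase subunit that marks the Notch intracellular domain and MYC for degradation, was 26.2 to 91.8 TPM in Notch1+/ΔTAD and 0 to 30.9 TPM in WT libraries (difference 3.05, SE 1.92, limma adjusted p = 0.952). In Notch1+/- it was 0 to 60.1 TPM (difference from WT 2.12, SE 1.71, limma adjusted p = 0.993). Dtx3, of the Deltex family, was 79.4 to 259.7 TPM in Notch1+/- and 0.200 to 197 TPM in WT libraries (2.53, SE 1.51, limma adjusted p = 0.969). Ccnd1 was lower by mean in Notch1+/- than in WT (-2.61, SE 1.89, limma adjusted p = 0.978) and higher in Notch1+/ΔTAD than in Notch1+/- (3.29, SE 2.02, limma adjusted p = 0.997). Ctbp1 had the highest difference between the mutants (3.56, SE 2.07, limma adjusted p = 0.987) and Ctbp2, its close relative, was among the lowest (-2.25, SE 1.53, limma adjusted p = 0.997), with 198 and 43.9 TPM in Notch1+/- libraries 5 and 13 and at most 1.16 TPM elsewhere.

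**Figure D4:**
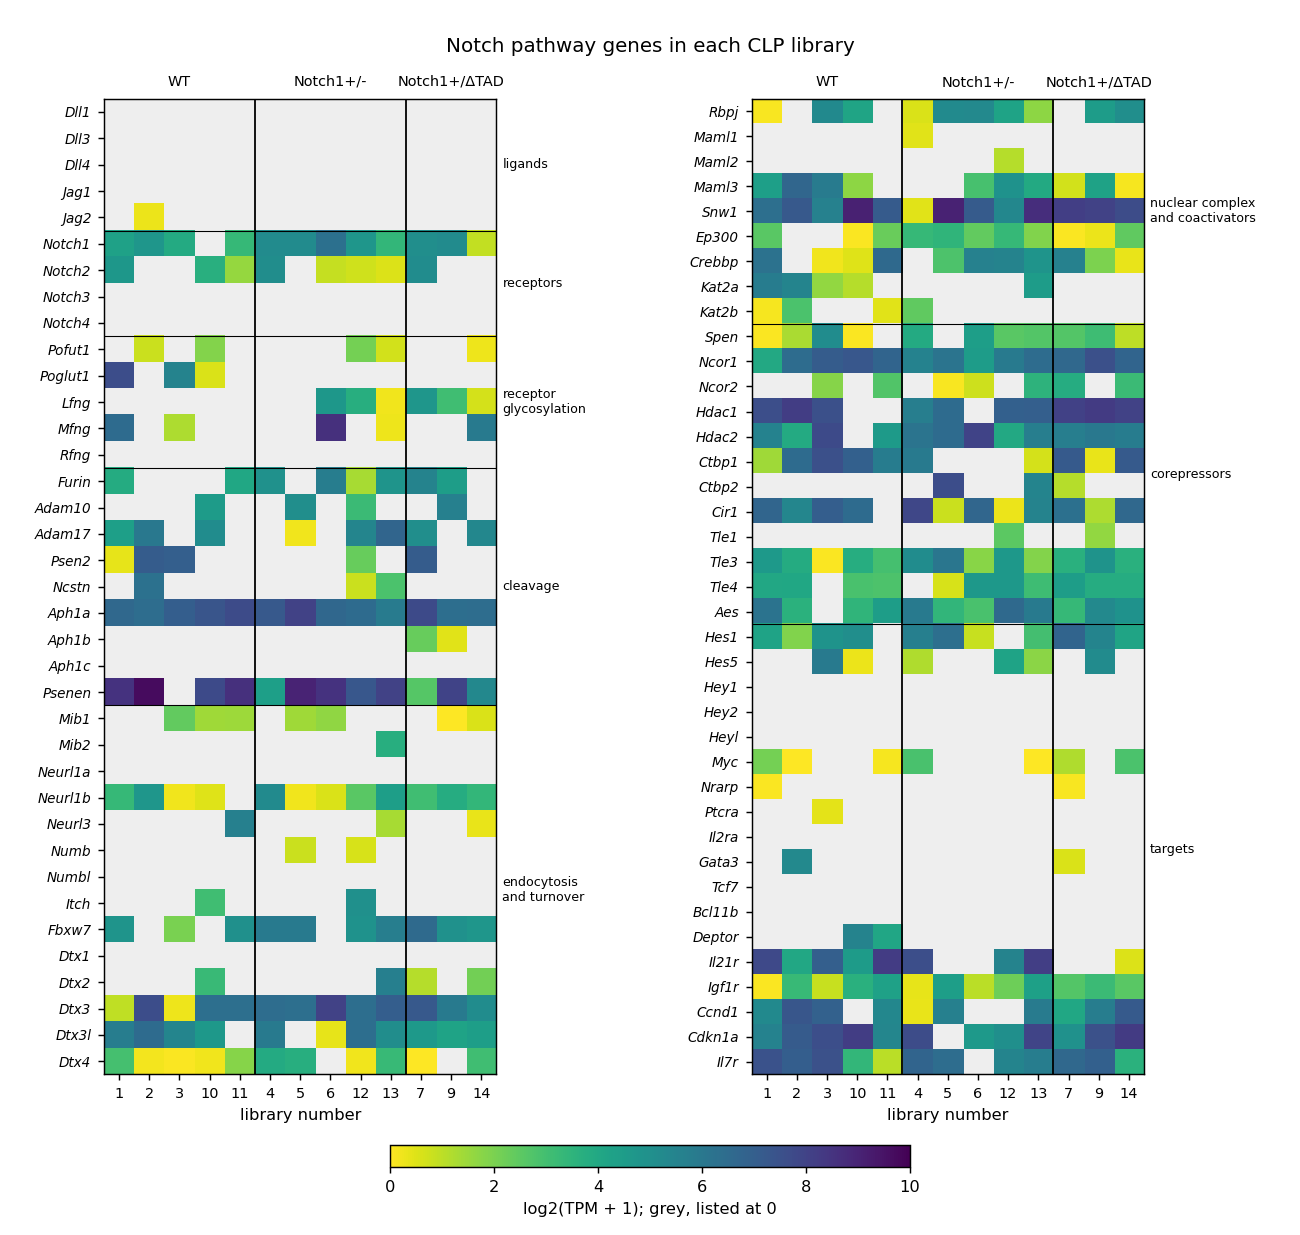
Level of Notch pathway genes (one line each, grouped by role) in each library (columns, by genotype), colored by log2(TPM + 1) with grey for a gene listed at 0. Ligands and thymic targets are grey almost throughout, Aph1a, Psenen, Snw1, and Ncor1 are dark in nearly all libraries, and most other genes change from library to library within a genotype.

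The genes most like 3 of the 8 across the 13 libraries were sought among 2983 genes with at least 1 TPM in 7 libraries. For Notch1 they were Srek1 (Pearson r = 0.842, Spearman rho = 0.775), a splicing regulator, Zfp991 (0.816 and 0.748), and Stt3b (0.811 and 0.704), a catalytic subunit of the oligosaccharyltransferase. For Hes1 they were Cdk12 (0.852 and 0.779), a kinase of transcription elongation, Gid8 (0.840 and 0.642), and Ykt6 (0.805 and 0.822), a membrane fusion protein. For Myc they were Sppl2a (0.853 and 0.857), an intramembrane protease, Soga1 (0.747 and 0.503), and Dot1l (0.730 and 0.413), a histone methyltransferase. None of the 9 belongs to the pathway genes listed here. These values describe the libraries, which share unknown differences in depth and in the number of genes listed, and they are the highest of 2983 for each gene.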

How the data were processed

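CLP RNA from 13 mice, grouped by the genotype labels, was sequenced as strand-specific 3′ (QuantSeq) libraries. The authors trimmed reads (FASTQ Toolkit 2.2.0), used STAR within RNA-Seq Alignment 2.0.0 on mm10, and compared genotypes in RNA-Seq Differential Expression 1.0.1 (DESeq2). The authors deposited TPM in 2 tables that each hold WT and a single mutant, with identical WT columns. The tool, annotation, and lengths behind the TPM are not given in the sources used here. Depth is unknown, so precision rests on the spread between mice, 1 library each.

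Differences of log2(TPM + 1), which understate changes of low genes, were tested with limma 3.58.1 in R 4.3.3 (eBayes with trend, 2-sided, Benjamini-Hochberg adjustment over all genes tested). A gene needed 1 TPM or more in 3 libraries, or in 5 for Notch1+/- against WT. The mutants were compared in a model of all 13 libraries. Exact permutation tests were 2-sided. Scripts were tested on simulated data. Annotation was GENCODE M21 (GRCm38).

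The 8 genes, the lists, and the tests were chosen with earlier results of these data known. Pathway genes were named for groups without overlap, an unadjusted limma p under 0.05, the 3 highest and 3 lowest differences, or the 5 highest median levels, and other pathway genes named here were chosen after their values were seen. 1 gene that the rule names is not reported here. Alternatives were pseudocounts of 0.1 and 10, no filter, quantile normalization, eBayes without trend, a term for the range of library numbers, another set of libraries in the model, and leaving out each library.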

Additional observations from a re-analysis of the deposited data

Results flagged for a closer look

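In WT and Notch1+/- mice, where 5 libraries allow it, the highest or lowest value of each of the 8 genes was set against the other libraries of its genotype, in 15 groups with any value above 0. The gap divided by the range exceeded Dixon's critical value of 0.71 in 8 groups, where chance alone gives about 1 in 20, or 0.750 of 15. Groups mostly at 0 are not of the kind this rate assumes. All 8 were high values. Notch2 had 33.6 TPM in Notch1+/- library 4, where the next library had 0.831 TPM. Adam10 had 21.7 TPM in WT library 10 with the others at 0, and 32.1 TPM in Notch1+/- library 5 with the next at 7.99 TPM. Ncstn had 76.0 TPM in WT library 2 with the others at 0, and 6.08 TPM in Notch1+/- library 13 with the next at 0.727 TPM. Maml1 had 0.358 TPM in Notch1+/- library 4 with the others at 0. Myc had 3.29 TPM in WT library 1 with the next at 0.0946 TPM, and 6.39 TPM in Notch1+/- library 4 with the next at 0.0258 TPM. Notch1+/- library 4 thus held the far value for Notch2, Maml1, and Myc, and the other 5 values came from 5 other libraries. Notch1, Rbpj, and Hes1 had no such value.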

How the results depend on the processing

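Of 352 values of the 8 genes under the alternatives, 214 came from genes tested both there and in the main analysis, of which 184 kept their direction and their side of the threshold and 30 reversed. The other 138 have no side of a threshold to compare, of which 130 kept their sign, 5 reversed, and 3 fell to 0. Of the 35 reversals, 28 came from leaving out 1 library. None of the 8 passed an adjusted p of 0.05 in any fit, with a smallest limma adjusted p of 0.709. With eBayes without trend, 15 genes passed for Notch1+/ΔTAD and 2 for Notch1+/-, each set against WT, and 3 passed between the mutants, none of them among the 8, and the cause was not tested. The other alternatives called 0 genes.

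After quantile normalization, Notch1 and Myc reversed to -0.25 and -0.19 in Notch1+/ΔTAD against WT, Hes1 to 0.08 in Notch1+/- against WT, and Notch2 to -0.29 between the mutants. A pseudocount of 10 reversed Notch2 to 0.08 in Notch1+/ΔTAD against WT and Hes1 to 0.17 in Notch1+/- against WT, and a pseudocount of 0.1 reversed Notch2 to -0.57 between the mutants.

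Leaving out 1 library gave, for Notch1+/ΔTAD against WT, -0.33 to 1.88 for Notch1, -2.00 to 0.58 for Notch2, -0.90 to 1.92 for Adam10, 0.33 to 2.86 for Rbpj, and 0.14 to 1.56 for Myc. The lowest values of Rbpj and Myc were without library 14, the highest of Rbpj without 7 and of Myc without 9. Notch1 reversed without library 7 (-0.20), 9 (-0.25), or 10 (-0.33), Notch2 without 1 (0.40), 9 or 14 (0.58), or 10 (0.15), and Adam10 without 9. For Notch1+/- against WT the ranges were -1.47 to 0.13 for Notch2, -0.11 to 1.64 for Adam10, -1.06 to 0.72 for Ncstn, -0.83 to 0.76 for Hes1, and -0.44 to 0.54 for Myc. Notch2 reversed without library 1, Adam10 without 5, Ncstn without 2, Myc without 4, and Hes1 without 1 (0.22), 3 (0.38), 6 (0.55), 10 (0.43), 12 (0.76), or 13 (0.02). Between the mutants they were -1.96 to 0.17 for Notch1, -1.45 to 1.19 for Notch2, -1.64 to 1.18 for Adam10, and -1.17 to 1.36 for Rbpj. Notch1 reversed without library 14, Notch2 without 5 (-0.09) or 7, Adam10 without 4, 6, or 13 (-0.17) or 9, and Rbpj without 5 (0.23), 6 (0.25), or 7. Myc ran from 0.01 without library 14 to 1.43 without library 9 between the mutants. Ncstn fell to 0.00 in Notch1+/ΔTAD against WT without library 2, and Maml1 in both Notch1+/- comparisons without library 4. Hes1 stayed at 1.48 to 2.94 against WT and 1.52 to 3.10 against Notch1+/- in Notch1+/ΔTAD mice, and Notch1 at 0.90 to 2.11 in Notch1+/- against WT.

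No paired analysis was made, because the library numbers are serial and do not show which mice, if any, belong together. Reads per library are unknown, so no limit can be put on a gene listed at 0.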

Other observations

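The glycosyltransferases that modify the extracellular part of Notch receptors were each listed in 6 libraries or fewer. They were below the minimum for a test against WT, except Mfng in Notch1+/ΔTAD, and were picked after their values were seen, so they are given as values. Pofut1 and Mfng were each above 0 in 2 of 5 WT, 2 of 5 Notch1+/-, and 1 of 3 Notch1+/ΔTAD libraries. Lfng, a Fringe enzyme that changes which ligand a receptor answers to, was at 0 in all 5 WT libraries. It had 25.1, 12.3, and 0.163 TPM in Notch1+/- libraries 6, 12, and 13, and 26.0, 7.49, and 0.568 TPM in Notch1+/ΔTAD libraries 7, 9, and 14. Between the mutants, where it was tested, it differed by 1.10 (SE 1.41, limma adjusted p = 0.997). Poglut1, which adds glucose to the receptor, had 3 of 5 WT libraries above 0, up to 197 TPM, and every mutant library at 0. Zeros are common, with 1053 genes above 0 in 3 libraries, as Poglut1 was, and 666 in 6, as Lfng was. How many of those genes split by genotype in this way was not counted, so the 2 patterns are not a result about these enzymes. Mfng, another Fringe enzyme, reached 90.0 TPM in WT, 387 TPM in Notch1+/-, and 59.6 TPM in Notch1+/ΔTAD libraries (Notch1+/ΔTAD against WT 0.43, SE 1.88, limma adjusted p = 0.996). Pofut1, which adds the fucose that Fringe enzymes extend, was at most 3.22 TPM, and Rfng was at 0 throughout.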
